A study of Mus musculus with 6 samples.

Results

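Aquaporins are membrane channels that let water follow osmotic gradients across cell membranes. The classical members are selective for water, while a second group, the aquaglyceroporins, also passes glycerol and some small solutes, and several members let hydrogen peroxide through. In skin, AQP3 is the abundant aquaglyceroporin of basal keratinocytes, where glycerol transport contributes to hydration and barrier repair, and AQP1 is best known from red blood cells, capillary endothelium and kidney tubules. Here 8 aquaporin genes (Aqp1, Aqp3, Aqp4, Aqp5, Aqp7, Aqp8, Aqp9 and Aqp11) are described out of 30142 genes measured. Each was taken by its gene symbol, and each had 1 feature on the array, so picking the brightest feature per gene made no choice among them. The set was selected on the family name with the genotype differences of its genes already known, so the members' differences between genotypes are a description and carry no test.

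The samples were cancer stem cells of squamous cell carcinomas of the skin, from wild-type mice (WT, 3 samples) and of Sfrp1-/- mice (Sfrp1_KO, 3 samples), which lack a secreted antagonist of Wnt signalling. All mice of both genotypes received DMBA, a mutagen, on 3 days (postnatal days 23, 25 and 27), and then the tumour promoter TPA 2 times a week for 30 to 40 weeks. Cells without lineage markers and with Epcam, α6 integrin and CD34 were sorted by FACS, and total RNA of each sample was hybridised to an Affymetrix MTA 1.0 array. The labels do not say how the Sfrp1 allele was made, in which strain, or whether separate animals stand behind the samples, so their spread may be technical in part.

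Values are deposited log2 signals, and a difference is Sfrp1_KO minus WT. They reached 19.93, above the 16 bits of a scanner, so a step that no label names changed the scale and a difference of 1 unit need not be a doubling of RNA. The background level of an array is the highest of its 23 background probe sets, and lay between 4.82 and 5.10. Between 33.2% and 42.5% of the genes stood above it on an array. Sfrp1 itself was at 5.71, 5.48 and 6.07 on the WT arrays and at 5.09, 5.11 and 5.15 on the Sfrp1_KO arrays. The groups did not overlap, 2 of the 3 Sfrp1_KO arrays were above background, and the difference did not pass the test across all genes (limma adjusted p = 0.0969). Of the markers of the sort, Epcam was at 7.44, 8.69 and 6.65 in WT but at 4.99, 4.89 and 5.22 in Sfrp1_KO, where replicates 1 and 2 lay under their background level and replicate 3 just over it. Cd34 was at 9.26 to 9.54 in WT and at 10.19 to 11.55 in Sfrp1_KO, and Itga6 at 9.00 to 10.22 and 7.47 to 7.82. Epcam and Itga6 passed as lower in Sfrp1_KO (limma adjusted p = 0.0455 and 0.0292), and both calls ended without any 1 Sfrp1_KO array. Cd34 did not pass with all arrays (limma adjusted p = 0.0714) but passed as higher without Sfrp1_KO replicate 3 (limma adjusted p = 0.00664).

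The genotypes differed in which aquaporin was bright. Aqp3 was bright in every WT array and at background in Sfrp1_KO, Aqp1 was the reverse, and the 6 further members were under background on all 6 arrays, as were 54.5% of all genes. The 250 bases before the start of these 2 genes are shown because they are the members whose signal differs; capitals mark matches to the motifs named after them.
Aqp1 (GRCm38.p6, chr6:55336049-55336298, plus strand): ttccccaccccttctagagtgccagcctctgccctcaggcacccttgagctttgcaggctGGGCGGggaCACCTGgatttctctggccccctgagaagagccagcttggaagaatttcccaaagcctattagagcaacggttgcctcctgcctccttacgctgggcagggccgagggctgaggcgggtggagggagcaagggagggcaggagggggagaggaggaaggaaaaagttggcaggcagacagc
Aqp3 (GRCm38.p6, chr4:41098184-41098433, minus strand): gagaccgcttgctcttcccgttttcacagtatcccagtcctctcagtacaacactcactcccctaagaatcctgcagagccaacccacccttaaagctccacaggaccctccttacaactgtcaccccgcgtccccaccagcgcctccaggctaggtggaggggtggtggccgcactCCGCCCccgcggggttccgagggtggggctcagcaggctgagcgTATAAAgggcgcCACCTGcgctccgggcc
Both are RefSeq sequences written 5′ to 3′ in the direction of the gene, and both strands were searched. The TATA box letters TATAAA begin 29 bases before the start of Aqp3 and are not in the Aqp1 window; 12.4% of the 32851 windows of this length in the RefSeq table hold them. Each gene has 1 GC box (GGGCGG, in 32.7% of windows), 190 bases before the start in Aqp1 and, on the opposite strand, 73 bases before it in Aqp3. Each also has 1 CACCTG, the E-box letters bound by factors of the Snail and Zeb families (in 17.2% of windows), 181 and 17 bases before the start. The letters of the CCAAT box (CCAAT, 33.8% of windows), of AP-1 (TGANTCA, 6.75%) and of a nuclear receptor half-site (AGGTCA, 14.0%) are in neither window. The Aqp3 window holds 14 CG dinucleotides and the Aqp1 window 5, against a median of 6. These matches describe letters and no binding was measured.

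Aqp3, the water and glycerol channel of basal keratinocytes, had log2 signals of 13.30, 12.65 and 14.26 on the WT arrays and of 4.86, 5.22 and 4.78 on the Sfrp1_KO arrays. The WT arrays all lay far over background, the groups did not overlap, and of the Sfrp1_KO arrays only replicate 2 exceeded its background level. The means were 13.40 ± 0.81 in WT and 4.96 ± 0.24 in Sfrp1_KO (SD, n = 3), a difference of -8.44 (SE 0.39, 95% interval -9.38 to -7.51). The Sfrp1_KO mean lay under the mean background level of those arrays (5.07), so it bounds the level there and the difference is one of signals. In RNA from sorted cells, fewer cells that express a gene and less RNA per cell cannot be told apart.

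Aqp1, the water-selective channel, had log2 signals of 4.45, 4.57 and 5.16 on the WT arrays and of 11.36, 11.16 and 10.00 on the Sfrp1_KO arrays. Of the WT arrays only replicate 3 exceeded its background level, and Sfrp1_KO replicate 3 was the lowest of its group. The means were 4.73 ± 0.38 in WT and 10.84 ± 0.73 in Sfrp1_KO (SD, n = 3), a difference of 6.12 (SE 0.38, 95% interval 5.20 to 7.03). Here the WT mean lay under the mean background level of the WT arrays (4.96), and it likewise bounds the level in WT.

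**Figure D1:**
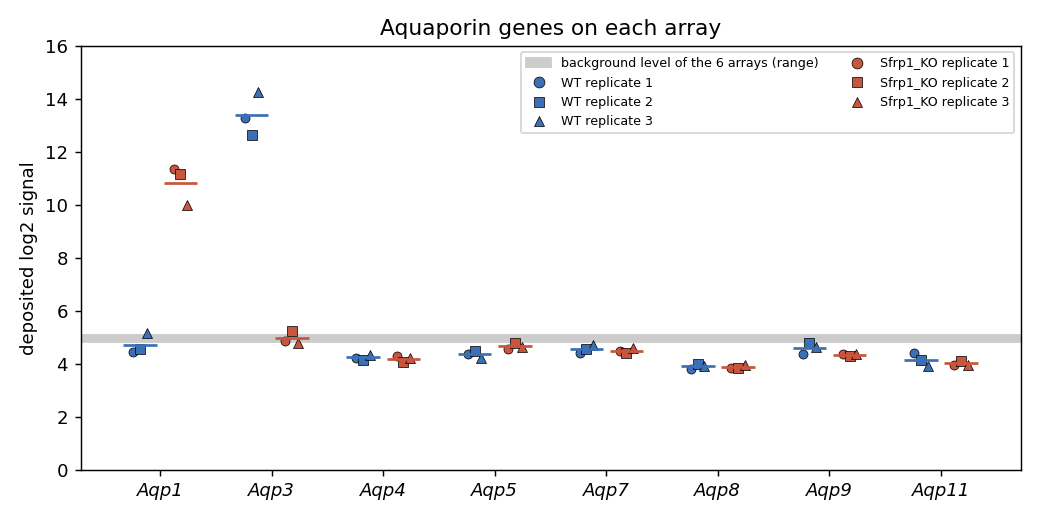
Deposited log2 signal of the 8 aquaporin genes on each of the 6 arrays (WT blue, Sfrp1_KO red; symbols are replicates 1 to 3, lines are group means, the grey band is the range of the arrays' background levels). Aqp3 lies between 12.65 and 14.26 in WT and around background in Sfrp1_KO, Aqp1 lies between 10.00 and 11.36 in Sfrp1_KO, and the other members stay between 3.81 and 4.80.

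In the limma fit over all genes, 1 of the 8 members (Aqp1) passed adjusted p under 0.05 as higher in Sfrp1_KO and 1 (Aqp3) as lower, against 1.83% and 1.45% of all genes in those directions. Since the set was chosen with this contrast known, nothing is read from that count. The median difference over the 8 members was -0.05, and over all genes -0.01. The arrays of the genotypes did not overlap for 3 members (Aqp1, Aqp3 and Aqp5), where 19.9% of all genes were so separated. A filter that kept genes with a mean over the 6 arrays above the mean background level passed 2 of the 8, Aqp1 and Aqp3, each through the genotype in which it was bright.

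**Figure D2:**
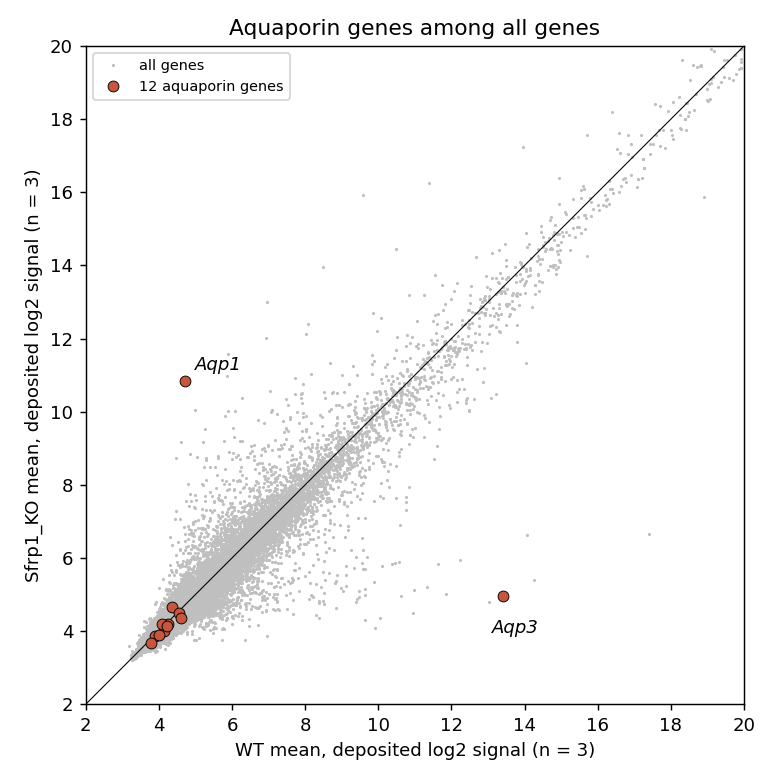
Mean deposited log2 signal of each gene in Sfrp1_KO against WT (n = 3 arrays each), with all 30142 genes in grey, the 12 aquaporin genes in red and the line of equality. Aqp1 (4.73 in WT, 10.84 in Sfrp1_KO) and Aqp3 (13.40 and 4.96) lie far from the line, and the other 10 sit at its dim end.

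Of the further water channels, Aqp5, which serves fluid secretion in sweat, salivary and tear glands, had signals of 4.37, 4.49 and 4.22 in WT and of 4.55, 4.79 and 4.62 in Sfrp1_KO. Each Sfrp1_KO array was above each WT array, by little and under background throughout (difference 0.30, SE 0.11, 95% interval 0.04 to 0.55). Aqp4, the main water channel of astrocytes, was at 4.21, 4.15 and 4.35 in WT and at 4.28, 4.08 and 4.23 in Sfrp1_KO, with overlapping groups (-0.04, SE 0.10). The platform lists a second gene identifier for the Aqp4 feature, so its signal may not be that of Aqp4 alone. Aqp8, which passes water and hydrogen peroxide, varied least of the 8 across the arrays, from 3.81 to 3.97 in WT and from 3.82 to 3.94 in Sfrp1_KO (-0.03, SE 0.08). Aqp11, a distant family member of the endoplasmic reticulum, was at 4.39, 4.14 and 3.90 in WT and at 3.96, 4.11 and 3.97 in Sfrp1_KO (-0.13, SE 0.14).

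The aquaglyceroporins besides Aqp3 were dim in both genotypes. Aqp7, through which adipocytes release glycerol, was at 4.40, 4.54 and 4.72 in WT and at 4.50, 4.39 and 4.59 in Sfrp1_KO, and the groups overlapped (-0.06, SE 0.11, 95% interval -0.33 to 0.20). Aqp9, a glycerol and urea channel of liver and leukocytes, was at 4.36, 4.80 and 4.63 in WT and at 4.38, 4.28 and 4.38 in Sfrp1_KO (-0.25, SE 0.13, 95% interval -0.55 to 0.05). Under background a signal gives a bound on the gene's level and a difference between arrays need not be one of RNA, so these 6 genes were not detected here rather than shown to be equal.

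The array also measured 4 aquaporin genes outside the set, and these were under background on all 6 arrays as well. They were Mip, the lens aquaporin (4.08 ± 0.05 in WT and 4.18 ± 0.10 in Sfrp1_KO; SD, n = 3), Aqp2, the vasopressin-regulated channel of the kidney collecting duct (3.99 ± 0.23 and 3.89 ± 0.09), Aqp6, an intracellular channel of kidney cells (4.21 ± 0.07 and 4.15 ± 0.05), and Aqp12 of the exocrine pancreas (3.78 ± 0.05 and 3.66 ± 0.07). None of the 4 passed the limma test, and none had an unadjusted p under 0.05 (0 higher, 0 lower). A further feature that the platform assigns to Mip and to the long noncoding RNA gene Gm26847 stood at 7.73 ± 0.20 in WT and 7.51 ± 0.06 in Sfrp1_KO, and cannot be credited to Mip.

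**Figure D3:**
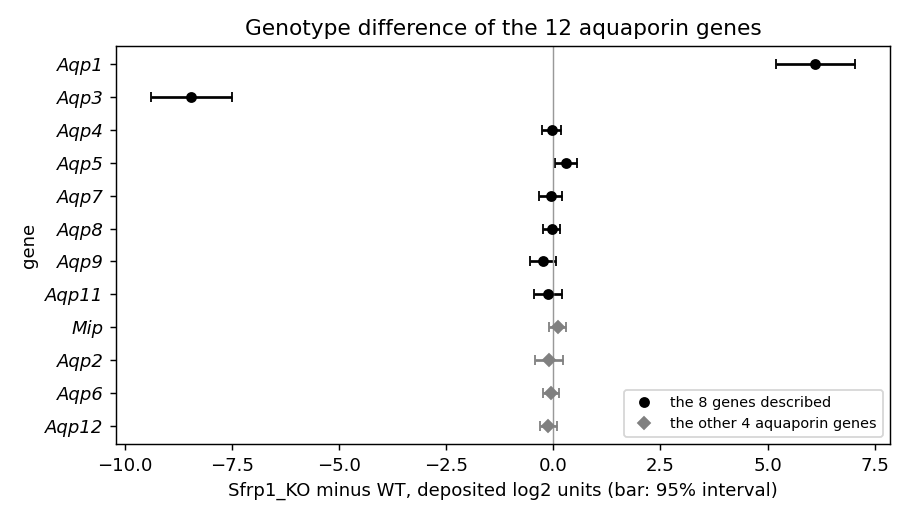
Difference in deposited log2 signal, Sfrp1_KO minus WT, with its 95% interval from limma, for the 8 aquaporin genes described (black circles) and the other 4 (grey diamonds). Aqp1 is at 6.12 and Aqp3 at -8.44, and the other 10 lie between -0.25 and 0.30.

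Aqp3 and Aqp7 are next to each other on chromosome 4, and Aqp2, Aqp5 and Aqp6 follow each other on chromosome 15. Aqp7 was thus under background in WT, where its neighbour Aqp3 was bright. Of the 5 other protein-coding genes within 3 places of Aqp3 (Chmp5, Nfx1, Nol6, Ube2r2 and Ubap2), none passed the limma test. Nol6, a nucleolar protein, came nearest (7.81 in WT, 6.72 in Sfrp1_KO, difference -1.09, SE 0.24, limma adjusted p = 0.0809). Of the 6 around Aqp1 on chromosome 6, Mindy4, next to it, was under background on all WT arrays (4.49, 4.71 and 4.76) and above it on all Sfrp1_KO arrays (5.53, 5.66 and 5.40), and it rose by at least 0.57 (limma adjusted p = 0.0138). The Mindy4 call ended without Sfrp1_KO replicate 1 (adjusted p = 0.0653) or replicate 2 (0.0689), and with the replicate number as a block (0.0522). Over the 35 neighbours of the 8 members that were measured, Mindy4 was the only one called, 1 gene against 3.28% of all genes. The largest difference among them was that of Dsc3, 3 places from Aqp4, which was not called. Dsc3 was at 11.85 in WT and 5.02 in Sfrp1_KO (-6.82, SE 1.63, limma adjusted p = 0.0964). Neighbours were looked at after values had been seen.

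The genes whose profile over the 6 arrays was most like that of Aqp1, after centring each gene on its own mean, were Crabp1, which binds retinoic acid (root mean square difference 0.32 log2 units), Mgp, an inhibitor of calcification (0.39), Vim, the intermediate filament of mesenchymal cells (0.40), Fn1, fibronectin (0.67), and S100a4, a calcium-binding protein of motile cells (0.73). In Crabp1, Mgp, Vim and Fn1, as in Aqp1, Sfrp1_KO replicate 3 was the lowest array of its genotype, at 11.97, 11.27, 10.49 and 12.75; S100a4 was lowest in replicate 1, at 11.66. For Aqp3 they were the basal keratin genes Krt14 (0.63) and Krt5 (1.20), the wound keratin gene Krt16 (1.04) and the desmosome genes Dsp (1.32) and Dsg3 (1.37). WT replicate 3 was the highest WT array for Aqp3 and for all 5 of these genes, and WT replicate 2 the lowest for Aqp3 and for all but Krt16. WT replicates 1 and 3 were nearly equal for Krt14 (14.66 and 14.68) and Krt5 (17.67 and 17.68), unlike for Aqp3 (13.30 and 14.26). Other arrays were not in the same order. Fn1 was highest of the WT arrays in replicate 2 and Aqp1 in replicate 3, and Dsg3 was lowest of the Sfrp1_KO arrays in replicate 2, where Aqp3 was highest. The genes were picked for nearness over these arrays, so a shared order is partly built in, and the genotype difference makes up most of each profile.

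**Figure D4:**
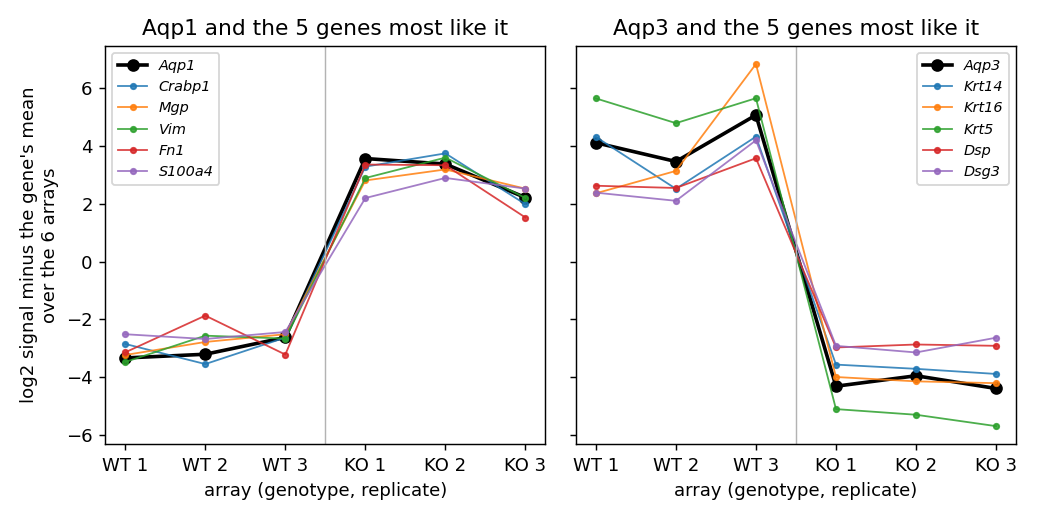
Deposited log2 signal minus each gene's mean over the 6 arrays, for Aqp1 and Aqp3 (black) and the 5 genes nearest to each by root mean square difference; the arrays are 3 WT and 3 Sfrp1_KO replicates. The root mean square difference over the arrays is at most 0.73 for the genes near Aqp1 and at most 1.37 for those near Aqp3; on single arrays some lie farther apart.

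Cell types were followed by marker lists, and that of basal keratinocytes holds Epcam and Itga6, which are also markers of the sort. The basal keratinocyte list, whose cells carry AQP3, had a mean signal of 9.64 to 10.08 on the WT arrays and of 5.82 to 5.93 on the Sfrp1_KO arrays; 8 of 10 genes fell by limma and none rose (median difference -2.79), all 10 being above background on every WT array and 6 on every Sfrp1_KO array. Without any 1 of the Sfrp1_KO arrays 5 of the 10 were called. Its largest falls were those of Krt5 (17.39 ± 0.50 to 6.64 ± 0.30; SD, n = 3), Krt14 (14.07 ± 1.04 to 6.62 ± 0.16), Cdh1, E-cadherin (9.47 ± 0.20 to 5.09 ± 0.14), and Cdh3, P-cadherin (9.13 ± 0.47 to 5.78 ± 0.05). Aqp3 moved with these genes, and their part in its difference was not tested.

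Endothelial and erythroid cells are known for AQP1. The sort took cells with Epcam and without lineage markers, a gate meant to leave out blood cells; the labels do not list the lineage markers. Of 11 endothelial markers measured none passed by limma (at unadjusted p under 0.05, 1 was higher and 0 lower), and 8 (Tek, Tie1, Emcn, Cldn5, Vwf, Plvap, Esam and Robo4) were under background on every array. The list's mean signal was 4.22 to 4.69 in WT and 4.35 to 4.50 in Sfrp1_KO. Pecam1, the defining marker CD31, was under background on all Sfrp1_KO arrays (4.80, 4.61 and 4.69), where Aqp1 was bright. In WT, Pecam1 was at 4.88, 4.89 and 5.45. Only WT replicate 3 exceeded background for Pecam1, and the same held for Aqp1. Cdh5, VE-cadherin, stood apart from the list, at 4.22, 4.36 and 5.16 in WT and at 7.15, 6.70 and 4.88 in Sfrp1_KO. Its Sfrp1_KO arrays were in the same order as those of Aqp1 (11.36, 11.16 and 10.00). In Sfrp1_KO replicate 3 Cdh5 was under background. Cdh5 passed without that array (2.34, limma adjusted p = 0.0337) and not with it (adjusted p = 0.264). The part of endothelial cells in the Aqp1 signal was not tested. Of 5 erythroid markers measured, Alas2, Slc4a1, Epb42 and Klf1 were under background on every array, none passed (0 higher and 0 lower at unadjusted p under 0.05), and the mean was 4.39 to 4.45 in WT and 4.33 to 4.46 in Sfrp1_KO; globin genes were not analysed here.

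The mean of the leukocyte list, of cells the lineage gate was meant to remove, did not overlap between the genotypes. The means of the basal keratinocyte, smooth muscle and pericyte, and Schwann cell lists did not overlap either, all lower in Sfrp1_KO. Among single genes 19.9% were so separated. The leukocyte mean over 10 genes was 4.48 to 4.61 in WT and 4.80 to 5.55 in Sfrp1_KO, lowest in replicate 3 as Aqp1 was. Only the means of Sfrp1_KO replicates 1 and 2 exceeded their background levels. Ptprc, Adgre1 and Csf1r were under background on every array. None of the 10 passed by limma, and 7 were higher and 0 lower at unadjusted p under 0.05 (median difference 0.59). The share of all genes under that unadjusted p is not given here, so these counts are a description. When Sfrp1_KO replicate 3 was left out 5 of the 10 passed, among them the complement genes C1qb and C1qa (limma adjusted p = 0.00436 and 0.0264), Laptm5 (0.0257) and the lysozyme gene Lyz2 (0.0352). Fibroblast markers had a mean of 5.52 to 6.77 in WT and of 6.42 to 7.11 in Sfrp1_KO. Of 9 measured, Pdgfrb (3.72, SE 0.38) and Thy1 (0.89, SE 0.14) rose and Fbln1 fell by at least 0.78 (limma, adjusted p = 0.00696, 0.0237 and 0.00394). The Thy1 call ended without any 1 of WT replicates 1, 2 and 3 or Sfrp1_KO replicates 1 and 2 (adjusted p = 0.0662, 0.0717, 0.0685, 0.10 and 0.0769). WT replicate 3, the only WT array with Aqp1 over background, had the fibroblast proteoglycan gene Dcn at 10.56, near the Sfrp1_KO values of 10.18, 11.16 and 10.11, where the other WT arrays had 6.54 and 6.58; Dcn was picked after its values were seen, and passed only when that array was left out (3.92, limma adjusted p = 0.0105). The part of such cells in the Aqp1 signal was not tested.

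**Figure D5:**
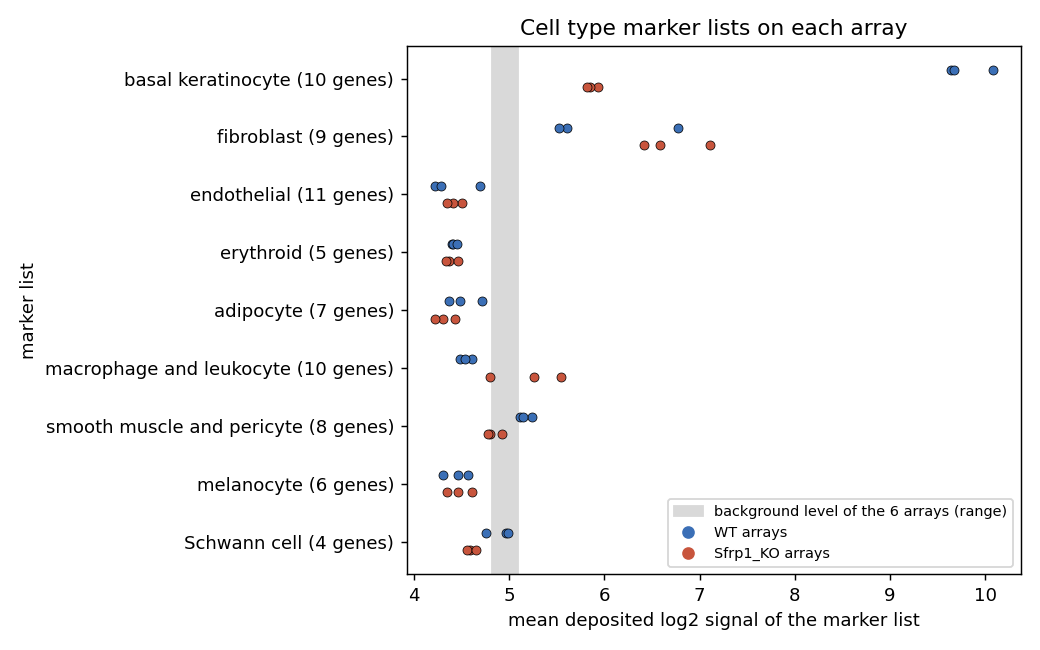
Mean deposited log2 signal of 9 cell type marker lists on each array (WT blue, Sfrp1_KO red; the grey band is the range of background levels). The basal keratinocyte list lies at 9.64 to 10.08 in WT and 5.82 to 5.93 in Sfrp1_KO, and the endothelial, erythroid, adipocyte and melanocyte lists lie under 4.82 on every array.

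Among the remaining lists, the adipocyte list bears on another aquaporin of the set. Adipocyte markers, of the cells that use Aqp7, had a mean of 4.36 to 4.71 in WT and 4.22 to 4.43 in Sfrp1_KO, with Adipoq, Plin1, Cidec, Lep, Retn and Pparg under background on every array. Fabp4, the other gene measured, was above background on every array, at 6.18, 6.32 and 7.62 in WT and at 5.61, 5.41 and 5.76 in Sfrp1_KO. None of 7 passed by limma (0 higher and 2 lower at unadjusted p under 0.05). Smooth muscle and pericyte markers were at 5.11 to 5.24 and 4.78 to 4.92, and none of 8 passed (0 higher and 2 lower unadjusted). Melanocyte markers were at 4.31 to 4.57 and 4.34 to 4.61, and none of 6 passed (1 higher and 0 lower unadjusted). Schwann cell markers were at 4.75 to 4.99 and 4.56 to 4.65, and of 4 measured Erbb3, a receptor that keratinocytes also use, fell by 1.32 (SE 0.12, limma adjusted p = 0.00539).

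AQP1 and the urea transporter of red cells, encoded by Slc14a1, both move small neutral molecules. Slc14a1 was at 5.43, 5.75 and 5.67 in WT and at 8.52, 9.08 and 8.64 in Sfrp1_KO. All Sfrp1_KO arrays lay far over all WT arrays, and the gene rose by 3.13 (SE 0.17, limma adjusted p = 0.0012). The other urea transporter gene, Slc14a2, was under background on every array. In this list of carbonic anhydrases, urea transporters and sodium pump subunits, 1 of 16 measured genes rose and 2 fell (median -0.10). Car12, a membrane carbonic anhydrase, fell from 7.16 ± 0.47 to 5.21 ± 0.13 (SD, n = 3; -1.95, SE 0.23, limma adjusted p = 0.0112), and Fxyd3, a regulator of the sodium pump, from 6.69 ± 0.37 to 5.38 ± 0.07 (-1.31, SE 0.18, adjusted p = 0.0181). Both calls ended without Sfrp1_KO replicate 1 (adjusted p = 0.0552 and 0.0697) or replicate 2 (0.0616 and 0.0922), and that of Fxyd3 without replicate 3 (0.0614). Without WT replicate 1 the test called 4 of the list as lower, among them Car2, the cytosolic enzyme, which was under background on every array and so has no measured difference in RNA.

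Hydrogen peroxide, which AQP3 passes, is made at the keratinocyte surface by dual oxidases. Duox1 was at 5.96, 6.22 and 6.43 in WT and at 4.66, 4.65 and 4.66 in Sfrp1_KO, and its maturation factor gene Duoxa1 at 7.24, 6.99 and 6.97 and at 5.40, 5.27 and 5.28. Neither gene had overlapping groups, and Duox1 was under background on all Sfrp1_KO arrays. Duox1 fell by at least 1.14 (limma adjusted p = 0.00378), and Duoxa1 fell by 1.75 (SE 0.10, limma adjusted p = 0.00156). In the opposite direction Cyba, the p22phox subunit of NADPH oxidases, rose from 6.17 ± 0.43 to 8.81 ± 0.64 (SD, n = 3; 2.65, SE 0.36, limma adjusted p = 0.0172), a call that ended without WT replicate 3 (0.0613), Sfrp1_KO replicate 1 (0.0640) or replicate 2 (0.0863). The catalytic subunit genes Nox1, Nox3, Nox4 and Cybb were under background on every array. Of the 19 genes of this list, which also holds catalase and peroxiredoxins, 1 rose and 2 fell (median -0.05); Cat, catalase, was at 8.93 ± 0.61 and 7.57 ± 0.29 (adjusted p = 0.0861).

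Glycerol, the second cargo of AQP3, AQP7 and AQP9, is released from triglyceride by lipases and built into lipids by acyltransferases. Of 23 genes for these steps, 1 rose and none fell by limma (4 were higher and 1 lower at unadjusted p under 0.05; median 0.01). Pnpla2, the adipose triglyceride lipase, was at 5.20, 5.19 and 5.15 in WT and at 7.23, 7.01 and 6.17 in Sfrp1_KO. It rose by 1.62 (SE 0.26, limma adjusted p = 0.0281), and the call ended without any 1 array except Sfrp1_KO replicate 3 (adjusted p from 0.0743 to 0.127). Dgat2, which makes triglyceride, was at 5.91 ± 0.62 in WT and under background in Sfrp1_KO (limma adjusted p = 0.0913) and passed as lower without WT replicate 2 (limma adjusted p = 0.0336). Of 18 osmotic response and cell volume genes, Stk39, a kinase of the chloride cotransporters, fell by 0.79 (SE 0.12, limma adjusted p = 0.0249) and none rose (4 were higher and 3 lower at unadjusted p under 0.05; median 0.01). The Stk39 call ended without any 1 array except WT replicate 2 (adjusted p from 0.0518 to 0.11). Sgk1, a kinase induced by cell shrinkage, was at 7.52 ± 0.30 and 8.39 ± 0.22 (adjusted p = 0.0633) and passed without WT replicate 2 (1.02, limma adjusted p = 0.0472).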

How the data were processed

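RNA of 6 samples (3 WT, 3 Sfrp1_KO) was measured on 1 array each. Per the submitters' processing notes, the authors ran RMA in Affymetrix Expression Console and deposited log2 signals; versions, summarisation level and annotation build: not given in the sources used here. Scanner files were not used here. Of 65956 transcript clusters, 30604 had 1 platform gene symbol, 2146 several and 33206 none listed; only those with 1 were named, and 827 symbols were updated through a RefSeq table (GRCm38.p6, 22818 features matched). The brightest feature of each gene gave 30142 genes, with no filter on dim ones.

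The comparison of Sfrp1_KO with WT was fitted in R 4.3.3 by limma 3.58.1 (lmFit, eBayes, two-sided, Benjamini-Hochberg over the 30142 genes, with calls at adjusted p under 0.05). SE and 95% intervals are limma's; "at least" is the brighter genotype's mean minus the mean background level of the dimmer genotype's arrays, used where none of those arrays exceeded it, with the adjusted p of the unbounded difference. The procedure was tested on simulated data. The number of arrays limits the precision.

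The members and lists were chosen with earlier results of these data known. Named were all aquaporin genes, Sfrp1 and the sort markers, the 5 genes nearest in profile to Aqp1 and to Aqp3 (predicted genes, pseudogenes and microRNAs left out), and up to 4 genes a list, called ones by size, otherwise by smallest p; genes named as under background, neighbours and Dcn are outside that rule. Some entries had no feature of their own and were not analysed here. Alternatives were a replicate block, array weights, each array left out, no dim features, a second quantile normalization, the mean of a gene's features, and trend plus robust moderation. Promoter windows are RefSeq's, for a build that may differ from the array annotation's.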

Additional observations from a re-analysis of the deposited data

How the results depend on the processing

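Aqp1 stayed the 1 member called as higher and Aqp3 the 1 called as lower under all 12 alternatives, with differences from 5.86 to 6.53 and from -8.82 to -8.02. The dim members were never called; of 90 values of the 8 members, 87 kept direction and call, and 3 turned sign, Aqp4 without WT replicate 3 (0.015) or Sfrp1_KO replicate 2 (0.021; range without 1 array -0.084 to 0.021) and Aqp7 without WT replicate 3 (0.020; -0.14 to 0.020). Aqp2 (-0.19 to 0.031), Slc4a1 (-0.030 to 0.062) and Acta2 (-1.06 to 0.011) also turned sign without 1 array. Over all genes, 552 were higher and 437 lower; leaving out 1 array gave 191 to 487 and 100 to 407. The replicate number as a block gave 297 higher and 238 lower, and quantile normalization once more gave 892 higher. Whether the numbers pair the samples is not known. Deviations of same-numbered arrays correlated at 0.18, -0.12 and 0.17 across genes, and those of unlike-numbered arrays at -0.33 to 0.25. With 3 arrays of each genotype these values cannot decide it.

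Without 1 array the glycerol list had 0 to 1 higher and 0 to 1 lower, the osmotic list 0 to 1 higher and 0 to 1 lower, the peroxide list 0 to 1 higher, and the carbonic anhydrase list 0 to 4 lower. With the replicate block the glycerol list had 0 higher, the osmotic list 1 higher, and the carbonic anhydrase list 2 higher and 1 lower. The calls of Mindy4, Fxyd3, Pnpla2, Thy1, Epcam and Itga6 ended with that block (limma adjusted p = 0.0522, 0.0558, 0.0555, 0.0766, 0.0981 and 0.0608). Quantile normalization once more gave 2 higher in the glycerol, 1 in the osmotic and 3 in the peroxide list, and leaving out dim features 1 higher in the osmotic list. Among markers, the basal keratinocyte list had 5 to 8 lower without 1 array and 5 with the replicate block, the fibroblast list 1 to 2 and 1 higher, the endothelial list 0 to 1 higher and the leukocyte list 0 to 5 higher without 1 array and 2 with array weights. The pericyte gene Mcam alone made 1 lower in the smooth muscle and pericyte list without 1 array (0 to 1), with dim features left out, after the second quantile normalization, with array weights and with trend and robust options. The cause was not tested. Under background, signals bound a level and their differences carry no order.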
